A study of Mus musculus with 6 samples.

Results

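The Timm and Tomm genes encode the translocases through which mitochondria take up proteins made in the cytosol. They were taken as every gene symbol in the tables that begins with Timm or Tomm followed by a digit, with pseudogenes marked -ps left out, which gave 26 of 55376 genes. Of these, 25 are protein-coding and 1, Tomm6os, is an antisense RNA gene. All 26 had the same start and end in the GENCODE M21 annotation of mm10 as in the deposited tables. RNA was measured by RIP-seq, in which the RNA that comes down with a protein on antibody-coated beads is sequenced, in freshly isolated muscle stem cells (satellite cells, SCs) of C57BL/6 mice aged 3 months. The series holds 6 libraries in 3 groups of 2. CPEB1 IP libraries came from an immunoprecipitation with anti-CPEB1, IgG libraries from a control immunoprecipitation with IgG, and input libraries from RNA that met no antibody. All were made by the SMART-seq2 method from cells sorted by FACS, and no genotype or treatment other than the antibody separates the groups. The series calls the CPEB1 RIP-seq libraries biological replicates, but how many mice gave each library was not given in the sources used here. The p-values rest on the spread between 2 libraries a group, which the test estimates for each gene in part from other genes.

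Most mitochondrial proteins enter through the TOM complex of the outer membrane, where receptors recognise the precursor and hand it to a channel. From there, precursors with a cleavable presequence pass the TIM23 complex of the inner membrane and are pulled in by a motor built on a mitochondrial Hsp70. Multispanning carrier proteins are instead escorted across the intermembrane space by the small TIM chaperones and inserted by the TIM22 complex. Quiescent satellite cells hold few mitochondria, and their mitochondrial content grows as they activate. CPEB1 is an RNA-binding protein that controls polyadenylation and translation of mRNAs, and it binds U-rich cytoplasmic polyadenylation elements (CPEs) in their 3′ UTRs.

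Timm and Tomm transcripts took a larger share of the counts in both precipitates than in input. Their summed counts made up 0.1344% and 0.1337% of the counts on genes in the input libraries, 0.187% and 0.1886% in IgG, and 0.2059% and 0.2079% in CPEB1 IP. Counts on genes ranged from 1284716 in an IgG library to 4941653 in a CPEB1 IP library, and the members held between 2403 and 10276 counts. The IgG libraries were the shallowest, so that members were measured least precisely there. Even so, they had counts on the most genes, 32381 and 32328, against 25280 and 29465 in CPEB1 IP and 21150 and 20158 in input. In such bulk samples fewer cells of a type and less RNA per cell cannot be told apart. All 10 satellite cell markers, Pax7, Myf5 and Myod1 among them, had counts in every library, with a summed level of 10300 to 12800 CPM, scaled here to the counts on genes. Sdc4 had the largest part of that sum, with 5231 to 7133 CPM after TMM scaling, and other markers differed between groups. In IgG 7 of the 10 were lower than input and 1, Myod1, was higher (log2 fold change 0.93), with Pax7 at -1.98, Calcr at -2.05, Fgfr4 at -2.16, Cdh15 at -3.08 and Chodl at -1.31. In CPEB1 IP the same 5 were lower than input, at -1.84, -1.57, -1.72, -2.22 and -0.84, and Myod1 was higher (1.31). Between CPEB1 IP and IgG 5 were higher and 0 lower. Summed markers of other cells in muscle differed between the groups. The summed level of 4 endothelial markers was 28.1 to 42.5 CPM in input, 185 to 191 in IgG and 232 to 263 in CPEB1 IP, and that of 4 fibro-adipogenic markers was 235 to 301, 361 to 427 and 482 to 512 CPM. Cldn5 had the largest part of the endothelial sum in the precipitates, and all 4 endothelial markers were called higher than input in both. Of the 4 fibro-adipogenic markers, 3 were called higher than input in IgG and 2 in CPEB1 IP. Dcn rose (log2 fold change 1.49 and 1.97), while Col1a1 was not called (-0.41 and 0.14). For 5 myofibre markers, 4 of them with counts in every library, it was 56.1 to 68.5, 102 to 117 and 111 to 146 CPM, and for 3 Schwann cell markers 73.0 to 74.3, 96.4 to 126 and 134 to 150 CPM. The 4 haematopoietic markers, of which 1 had counts in every library, summed to 9.96 to 22.3 CPM in input, 38.3 to 47.5 in IgG and 8.58 to 17.2 in CPEB1 IP. The study sorted cells negative for CD31, CD45 and Sca1 and positive for Vcam1, a gate that leaves out endothelial and haematopoietic cells and the Sca1-positive fibro-adipogenic cells. No marker was at 0 in all libraries, and the part of these cells in the results on Timm and Tomm genes was not tested.

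The 3′ UTRs of the members were searched for the CPEs TTTTAT and TTTTAAT on the transcript strand only, in the GENCODE M21 transcripts, since CPEB1 binds RNA. At least 1 motif stood in an annotated 3′ UTR of 17 of the 22 members with enough counts to be tested, or 77.3%. Among all tested genes with an annotated 3′ UTR the share was 7272 of 10880, or 66.8%, and the difference was not tested. The median length of the longest 3′ UTR was 989 bases in the tested members and 1284.5 over all tested genes. The density was 1.27 motifs per kb in the longest 3′ UTR of the tested members and 1.36 over all tested genes. In the last 100 bases of the longest 3′ UTR, where cytoplasmic polyadenylation elements lie near the polyadenylation signal, 5 of the 22 tested members (22.7%) had a motif, against 19.8% of all tested genes with a 3′ UTR of at least that length. These 5 sites, and that of Tomm6, which had too few counts to be tested, are shown because they lie closest to the 3′ end, with the motif in capitals and 10 bases on each side. Tomm6 had a second motif there, TTTTAT, which ends 80 bases before the 3′ end and stands in lower case in the bases before the first.
Tomm5: cagtctatatTTTTAATaaacattctg
Tomm70a: tgaaaacaatTTTTAATaaaaagtttt
Tomm34: attgaactgaTTTTATtgaagtgtgt
Timm29: attacaaatgTTTTAATtagtgtgtat
Timm8b: aaaagtgaaaTTTTATttatgggaat
Tomm6: tattttattcTTTTAATaagaaactta

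On mm10 they lie at chr4:45105218-45105244 (minus strand) for Tomm5, chr16:57156672-57156698 (plus) for Tomm70a, chr2:164053572-164053597 (minus) for Tomm34, chr9:21595898-21595924 (plus) for Timm29, chr9:50605245-50605270 (plus) for Timm8b and chr17:47686707-47686733 (minus) for Tomm6. In Tomm5 and Tomm70a the motif ends 16 and 17 bases before the end of the 3′ UTR, and its last 3 bases are also the first 3 of a polyadenylation signal (AATAAA). In Tomm34, Timm29, Timm8b and Tomm6 it ends 42, 56, 60 and 71 bases before the end. Tomm70a, a receptor for carrier precursors, had the most motifs, 14 in a 3′ UTR of 3969 bases. Timm17a had 5 in 6705 bases, the longest 3′ UTR of the members. No motif stood in a 3′ UTR of Timm10, Tomm40, Timm13, Timm50 or Timm44 among the tested members, and these letters are then only absent from the annotated 3′ UTRs. Timm23 had a motif in a shorter annotated 3′ UTR but none in its longest one.

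**Figure D1:**
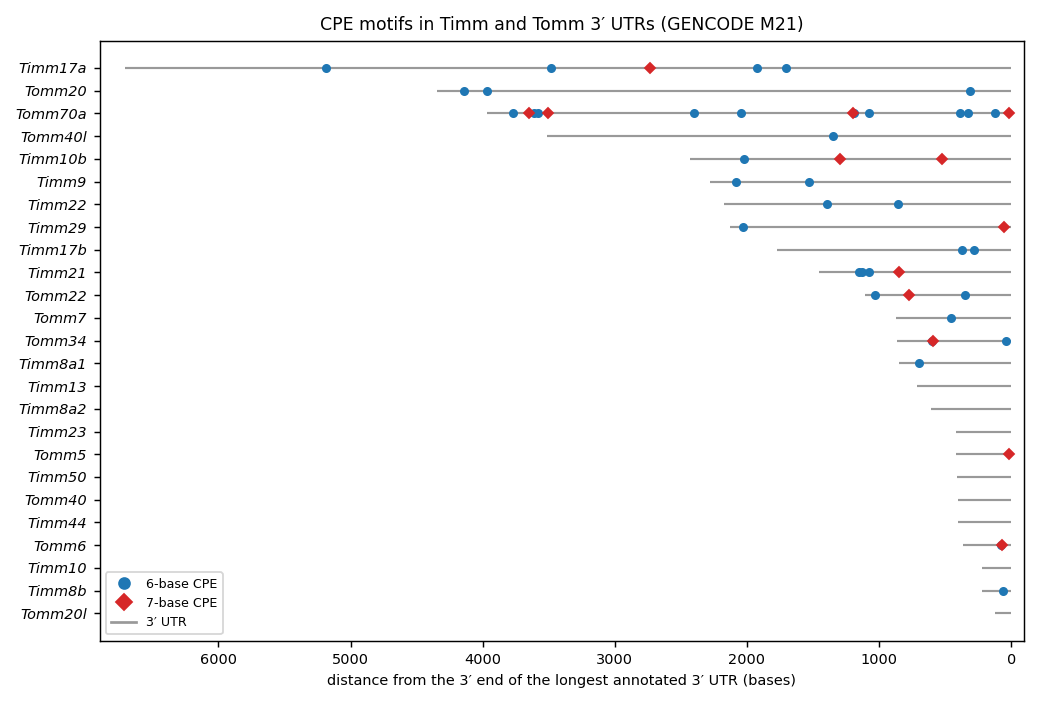
CPE motifs in the longest annotated 3′ UTR of the 25 protein-coding Timm and Tomm genes. The horizontal axis is the distance in bases from the 3′ end of the 3′ UTR, each grey line is 1 gene's 3′ UTR, and circles and diamonds are the 6-base and 7-base motifs. Tomm70a carries 14 motifs, and Timm10, Tomm40, Timm13, Timm23, Timm44, Timm50, Tomm20l and Timm8a2 carry 0.

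In input, the levels of the members ran from a mean of 0.115 to 64.4 on the FPKM scale, which corrects for length. Timm10, a chaperone of the intermembrane space, had the highest deposited FPKM, 54.4 and 74.5 in the input libraries. Timm23, the subunit that names the presequence translocase, followed with 45.1 and 46.9. Below them came Timm8b with a mean FPKM of 29.3 ± 0.0521, Tomm20 with 27.6 ± 0.0352, Tomm22 with 26.6 ± 6.93, Timm13 with 26.2 ± 1.43, Tomm5 with 22.8 ± 3.89 and Tomm40 with 22.5 ± 2.52 (SD, n = 2). The libraries of Tomm20, Tomm22, Timm13, Tomm5, Tomm40, Timm50, Tomm7 and Tomm34 overlapped from each gene to the next, so that their order is not fixed by these data. Of the 25 neighbouring pairs in the order of input FPKM, 16 overlapped. Timm17a (8.76 ± 1.33 FPKM) and its paralog Timm17b (7.95 ± 1.27) were next to each other but for Tomm70a (8.34 ± 3.18), and Timm22, the core of the carrier translocase, stood at 5.56 ± 0.912. Tomm40l and Timm10b were near 1.6 FPKM, at 1.64 ± 0.196 and 1.57 ± 0.159. Timm10 and Timm23 also ranked 1 and 2 in IgG and in CPEB1 IP.

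Of the 26 members, 22 passed the filter on low counts in all 3 comparisons. The other 4 were Tomm6, a small TOM subunit, Tomm20l and Timm8a2, paralogs of Tomm20 and Timm8a1, and Tomm6os. Tomm6 had 7 and 5 counts in input, 2 and 2 in IgG, and 6 and 3 in CPEB1 IP, and 84.2% of its exon bases overlap Usp49, Gm21981 or Tomm6os. Reads there could be split between genes by the authors' counting, for which neither the strand setting nor the handling of multiply assigned reads was given in the sources used here. Tomm20l had 0 to 3 counts and Tomm6os 0 to 3 counts in each library. Timm8a2 had 1 count in an input library and 0 in the others, and a count of 0 allows up to 3 counts, or 0.619 to 2.28 CPM over the 6 libraries. Among the tested members, 64.3% of the exon bases of Tomm40l overlap Nr1i3, 22.1% of those of Timm10b overlap Arfip2, Gm45799 or Gm22504, and 15.6% of those of Timm8b overlap Nkapd1. For the other tested members the overlap was 5.8% or less.

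Against input, 12 of the 22 tested members rose in CPEB1 IP and 2 fell in the quasi-likelihood test of edgeR, at a p under 0.05 after Benjamini-Hochberg adjustment over all genes tested. That is 54.5% of them higher, where 17.0% of the 12171 genes tested were called higher, and 9.09% lower, where 15.8% were. Their median log2 fold change was 0.68, or 1.60-fold, beside a median of 0.00 over all genes tested. All 5 tested small TIM chaperones were among the higher ones, as were the receptors Tomm20 and Tomm22, the channel Tomm40, the small subunit Tomm5, and Timm23, Timm17a and Timm22. Timm21 and Timm17b were lower. With a library left out, Timm21 ran from -0.98 to -0.80 and Timm17b from -1.04 to -0.82. Whether they were called depended on the library left out, and the share of all genes called changed too.

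In IgG against input, 8 of the 22 members were higher (36.4%, where 21.4% of the 12980 genes tested were called higher) and 2 were lower (9.09%, where 19.4% were), with a median log2 fold change of 0.41, or 1.33-fold, beside 0.03 over all genes. The higher ones were Timm8a1, Tomm5, Timm9, Tomm70a, Tomm20, Timm23, Tomm22 and Timm17a, and the lower ones were again Timm21 and Timm17b. Of the 8, all but Tomm70a were also called higher in CPEB1 IP than input. By DESeq2 2 were higher and 1 lower (6.05% and 12.3% of the same 12980 genes), and without a filter on low counts 3 were higher and 3 lower (10.7% and 23.5%), with Timm44 as the third at -0.80. With DESeq2's size factors in edgeR the counts were 8 and 2. Without IgG replicate 1 or 2 fewer members were called higher, and so was a smaller share of all genes tested. The members' median log2 fold change was then 0.31 in each fit. The comparisons of CPEB1 IP and of IgG with input share the input libraries, so they are no independent evidence of each other.

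The comparison of CPEB1 IP with IgG asks what the antibody to CPEB1 brings down beyond the control. The IgG libraries were deposited apart from the others, and a difference in their preparation cannot be told apart from the antibody. By the same test, 3 of the 22 members were higher in CPEB1 IP and 1 was lower. Timm10, Tomm40 and Timm29 were higher, and Tomm70a was lower. The share higher was 13.6%, near the 14.7% of the 12124 genes tested that were called higher, and the share lower was 4.55%, where 18.7% were called lower. The median log2 fold change was 0.24, or 1.18-fold, beside -0.01 over all genes tested. As rounded, 16 of the 22 lay above 0, and Timm44 stood at 0.0. With DESeq2, 9 were higher and 0 lower, with DESeq2's size factors in edgeR 5 higher and 1 lower, and without a filter 11 higher and 0 lower. Of the same 12124 genes, 21.7%, 15.3% and 28.8% were called higher in these fits and 6.08%, 18.4% and 7.56% lower. The DESeq2 and unfiltered fits also moved the median of all 12124 genes, to 0.27 with DESeq2 and 0.39 without a filter, and relative to it the members' median was 0.25 and 0.24, against 0.25 as first given. With a library left out it was 0.14 without IgG replicate 1 and 0.23 to 0.28 without any 1 of the others. For IgG against input the median of all genes moved to -0.11 and -0.24, and the members' median relative to it was 0.38 in each fit. Between CPEB1 IP and IgG the number of members called changed with a library left out, where 1 group held 1 library. The share of all genes called changed too, and not always in the same direction as the number of members.

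**Figure D2:**
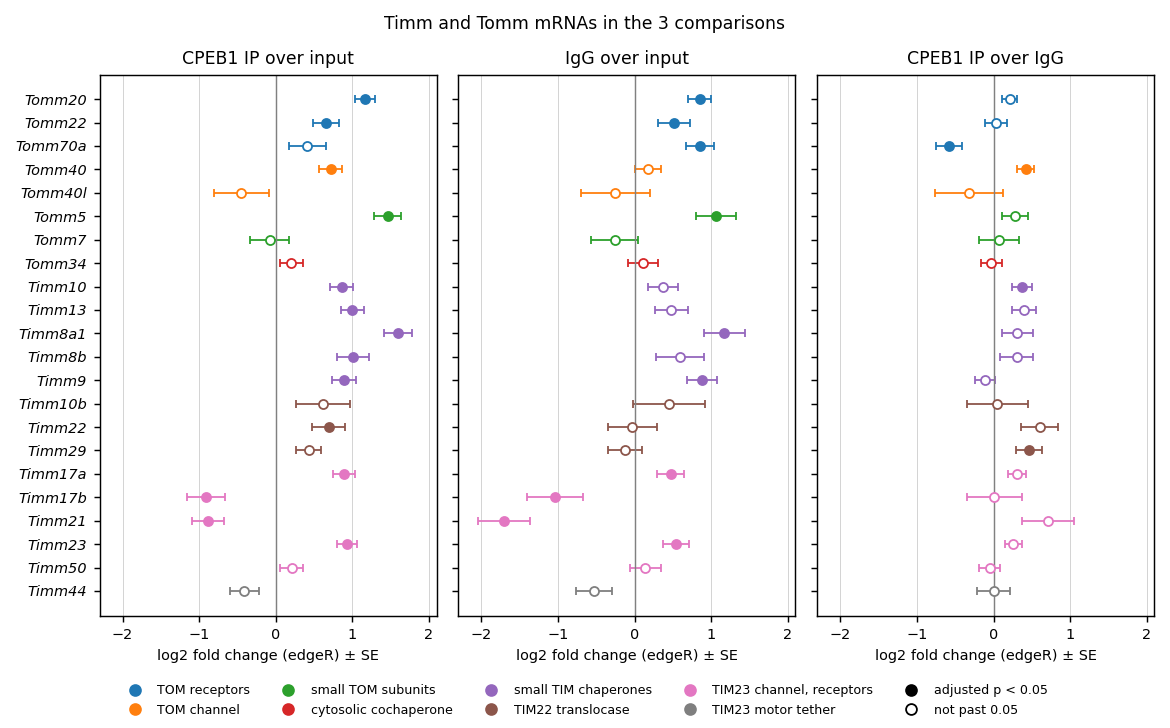
Log2 fold change with its standard error (horizontal axis) of the 22 tested Timm and Tomm genes, coloured by role, for CPEB1 IP over input, IgG over input and CPEB1 IP over IgG. Filled points have an adjusted p under 0.05 (edgeR's quasi-likelihood test, n = 2 libraries a group): 12 genes higher and 2 lower in the left panel, 8 and 2 in the middle, 3 and 1 in the right.

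Among the receptors of the outer membrane, Tomm20 (chr8:126930667-126945844), which recognises presequences, had 192 and 177 CPM in input, 309 and 355 in IgG, and 407 and 395 in CPEB1 IP. These and the CPM of single genes that follow are scaled over the 6 libraries by edgeR's TMM factors. Both precipitates lay above both input libraries, and CPEB1 IP lay above IgG without overlap. The log2 fold change was 1.17 (SE 0.13, adjusted p = 3.72e-05) for CPEB1 IP over input, 0.85 (SE 0.15, adjusted p = 2.49e-05) for IgG over input, and 0.21 (SE 0.10, adjusted p = 0.116) for CPEB1 IP over IgG. The last was past the threshold by DESeq2, without a filter and without IgG replicate 2, where it was 0.36, with an adjusted p of 7.31e-05 to 0.328 over the alternatives. Tomm22 (chr15:79670861-79673400), the receptor that also holds the complex together, had 50.6 and 68.0 CPM in input, 90.4 and 78.7 in IgG, and 90.8 and 90.2 in CPEB1 IP. The precipitates again lay above input, and their own values were close to each other. Tomm22 was higher than input in CPEB1 IP (0.66, SE 0.17, adjusted p = 0.00893) and in IgG (0.51, SE 0.21, adjusted p = 0.0471), and its log2 fold change between the precipitates was 0.03 (SE 0.14). The call in CPEB1 IP was lost without either CPEB1 IP library, with an adjusted p of 2e-06 to 0.0961 over the alternatives, and that in IgG by DESeq2, without a filter, and without input replicate 1 or either IgG library, with 0.0128 to 0.492.

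Tomm70a (chr16:57121703-57156705), the receptor to which cytosolic chaperones deliver carrier precursors, varied most between replicates of input and of CPEB1 IP among the tested members. It had 84.1 and 135 CPM in input, 204 and 192 in IgG, and 180 and 105 in CPEB1 IP. Its IgG libraries lay above the other 4, and the input and CPEB1 IP libraries overlapped. Tomm70a was higher in IgG than input (log2 fold change 0.85, SE 0.18, adjusted p = 0.000224) and lower in CPEB1 IP than IgG (-0.58, SE 0.17, adjusted p = 0.0111), and its log2 fold change of CPEB1 IP over input was 0.41 (SE 0.24, adjusted p = 0.21). The first call did not hold without a filter (0.58), with an adjusted p of 9e-11 to 0.0672. The value over input was 0.01 without CPEB1 IP replicate 1 and 0.06 without input replicate 1, and it was past the threshold at 0.75 without input replicate 2 and at 0.73 without CPEB1 IP replicate 2, with an adjusted p of 2.76e-06 to 0.99. The difference from IgG was -0.18 without CPEB1 IP replicate 2 and -0.94 without CPEB1 IP replicate 1. The call did not hold by DESeq2, without a filter, with all 6 libraries in 1 fit or without replicate 2 of either precipitate, with an adjusted p of 3.16e-07 to 0.65 over the alternatives. Tomm70a was the 1 member called lower in CPEB1 IP than in IgG, and whether CPEs bear on the calls was not tested.

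Tomm40 (chr7:19701313-19715438), the barrel that forms the channel of the outer membrane, had 155 and 122 CPM in input, 168 and 146 in IgG, and 218 and 222 in CPEB1 IP. Both CPEB1 IP libraries lay above the other 4, while IgG and input overlapped. Its log2 fold change was 0.42 over IgG (SE 0.11, adjusted p = 0.00604) and 0.72 over input (SE 0.15, adjusted p = 0.00294), and that of IgG over input was 0.17 (SE 0.17). Tomm40 was the only one of the 4 members called between CPEB1 IP and IgG that kept its call under all 9 alternatives, with an adjusted p of 2.63e-06 to 0.0482 and a log2 fold change of 0.37 to 0.82. Its paralog Tomm40l had 12.9 and 10.1 CPM in input, 8.35 and 10.9 in IgG, and 5.83 and 9.70 in CPEB1 IP, and was not called in any comparison.

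Tomm5 (chr4:45105208-45108114), a small subunit of the TOM complex, had 24.6 and 29.0 CPM in input, 50.1 and 61.2 in IgG, and 74.6 and 67.9 in CPEB1 IP. The groups did not overlap, with input lowest and CPEB1 IP highest. Its log2 fold change over input was 1.46 in CPEB1 IP (SE 0.18, adjusted p = 8.01e-05) and 1.06 in IgG (SE 0.26, adjusted p = 0.000959), and between the precipitates it was 0.28 (SE 0.17, adjusted p = 0.215). The IgG call was lost by DESeq2 (adjusted p of 0.00021 to 0.108), and the value between the precipitates was past the threshold by DESeq2 and without a filter (0.0146 to 0.489). Tomm7, another small subunit, had 23.6 and 37.2 CPM in input, 25.1 and 25.5 in IgG, and 22.9 and 31.2 in CPEB1 IP, and its groups overlapped. Tomm34, a cochaperone of the cytosol that meets precursors before the membrane, had 74.3 to 91.8 CPM over the 6 libraries and was not called in any comparison.

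The small TIM chaperones work as rings of alternating subunits, Timm9 with Timm10 and Timm8 with Timm13. Timm10 (chr2:84826997-84830213) had 62.6 and 79.4 CPM in input, 92.7 and 91.1 in IgG, and 121 and 127 in CPEB1 IP. Its groups did not overlap. The log2 fold change was 0.37 over IgG (SE 0.13, adjusted p = 0.0309) and 0.86 over input (SE 0.15, adjusted p = 0.0011), and that of IgG over input was 0.37 (SE 0.20, adjusted p = 0.131). The call over IgG was lost without IgG replicate 2, without either CPEB1 IP library and with all 6 libraries in 1 fit, with an adjusted p of 0.000316 to 0.231 over the alternatives. Timm9 (chr12:71123173-71136684), its partner, had 63.5 and 54.2 CPM in input, 110 and 107 in IgG, and 106 and 105 in CPEB1 IP. Both precipitates lay above input, and IgG lay slightly above CPEB1 IP. Timm9 was higher than input in CPEB1 IP (0.89, SE 0.16, adjusted p = 0.000989) and in IgG (0.88, SE 0.20, adjusted p = 0.000414), and its log2 fold change between the precipitates was -0.11 (SE 0.13, adjusted p = 0.546). The IgG call was lost by DESeq2, with an adjusted p of 3.92e-05 to 0.063.

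Timm8a1 (chrX:134537256-134541865) had the largest log2 fold change of the members in CPEB1 IP over input. It had 22.7 and 28.7 CPM in input, 40.3 and 75.02 in IgG, and 78.3 and 72.9 in CPEB1 IP. The IgG libraries differed more from each other than those of any other tested member, and IgG replicate 2 lay within the range of CPEB1 IP. The log2 fold change over input was 1.60 in CPEB1 IP (SE 0.18, adjusted p = 4.76e-05) and 1.17 in IgG (SE 0.27, adjusted p = 0.00065), where it was 0.63 without IgG replicate 2. This call was lost there, by DESeq2 and without a filter, with an adjusted p of 2.96e-05 to 0.207 over the alternatives. Between the precipitates it was 0.31 (SE 0.20, adjusted p = 0.244), -0.01 without IgG replicate 1, and past the threshold without a filter and at 0.88 without IgG replicate 2, with an adjusted p of 0.00622 to 0.97. Timm8b (chr9:50603910-50605320) had 21.5 and 19.8 CPM in input, 28.9 and 33.5 in IgG, and 40.4 and 40.3 in CPEB1 IP. Timm13 (chr10:80899450-80900969) had 48.8 CPM in each input library, 58.5 and 77.9 in IgG, and 91.7 and 96.0 in CPEB1 IP. In both genes input was lowest and CPEB1 IP highest with no overlap. Timm8b and Timm13 were higher in CPEB1 IP than input, with log2 fold changes of 1.01 (SE 0.21, adjusted p = 0.00259) and 1.0 (SE 0.15, adjusted p = 0.000408). Neither passed the threshold against IgG, at 0.30 (SE 0.22, adjusted p = 0.304) and 0.40 (SE 0.16, adjusted p = 0.0552), nor in IgG against input, at 0.59 (SE 0.31, adjusted p = 0.124) and 0.48 (SE 0.22, adjusted p = 0.0795). Timm13 was past the threshold against IgG by DESeq2, with its size factors in edgeR, without a filter and without IgG replicate 2, where it was 0.67, with an adjusted p of 0.000897 to 0.271, and in IgG against input with all 6 libraries in 1 fit, with 0.0433 to 0.624.

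**Figure D3:**
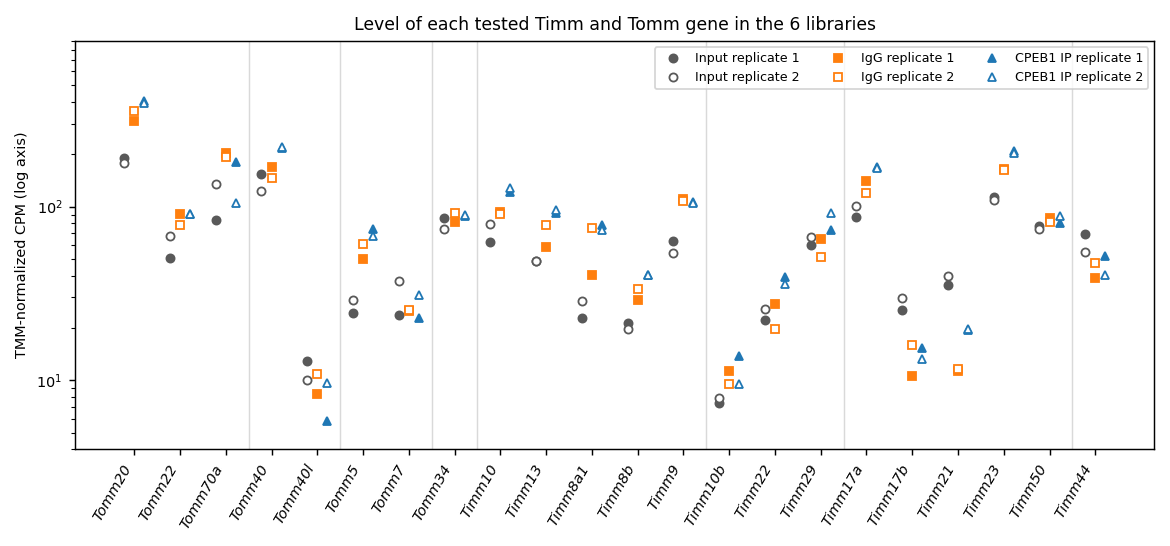
TMM-normalized CPM (vertical log axis) of the 22 tested Timm and Tomm genes in each of the 6 libraries, ordered by role with grey lines between roles. Each point is 1 library, filled for replicate 1 and open for replicate 2. All 5 small TIM chaperones sit above input in CPEB1 IP, and Timm21 and Timm17b sit below input in both precipitates.

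In the TIM22 complex, Timm22 (chr11:76406952-76416292) had 22.1 and 25.8 CPM in input, 27.3 and 19.7 in IgG, and 39.2 and 35.9 in CPEB1 IP. Both CPEB1 IP libraries lay above the other 4, and IgG and input overlapped. It was higher in CPEB1 IP than input (log2 fold change 0.69, SE 0.21, adjusted p = 0.0216), a call lost by DESeq2, without a filter, without input replicate 1 and without either CPEB1 IP library, with an adjusted p of 0.00442 to 0.14. Over IgG its log2 fold change was 0.60 (SE 0.24, adjusted p = 0.0633), and it was past the threshold by DESeq2, without a filter and without IgG replicate 1, where it was 0.91, with an adjusted p of 0.00603 to 0.253. Timm29 (chr9:21592722-21595970), a subunit that tethers the carrier translocase to the TOM complex, had 60.5 and 67.1 CPM in input, 65.3 and 51.0 in IgG, and 73.3 and 91.5 in CPEB1 IP. CPEB1 IP was again above the other 4 libraries, with replicate 1 close to the highest of them. Timm29 was higher in CPEB1 IP than IgG (0.46, SE 0.17, adjusted p = 0.0428), a call lost without IgG replicate 2 and without CPEB1 IP replicate 2, where the log2 fold change was 0.29, with an adjusted p of 0.00059 to 0.465 over the alternatives. Without IgG replicate 1 the log2 fold change was 0.70, and without CPEB1 IP replicate 1 it was 0.63. Over input its log2 fold change was 0.43 (SE 0.16, adjusted p = 0.0587), past the threshold at 0.51 without input replicate 2, with an adjusted p of 0.00747 to 0.665. Timm10b, a small TIM bound to this complex, had 7.37 to 13.8 CPM and was not called in any comparison.

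The TIM23 complex divided by subunit. Timm23 (chr14:32180162-32201898) had 114 and 110 CPM in input, 164 and 162 in IgG, and 208 and 203 in CPEB1 IP. Replicates lay close together and the groups did not overlap. The log2 fold change over input was 0.93 in CPEB1 IP (SE 0.13, adjusted p = 0.000254) and 0.54 in IgG (SE 0.17, adjusted p = 0.00939), the latter lost by DESeq2, without a filter and without either IgG library, with an adjusted p of 0.00309 to 0.265. Between the precipitates it was 0.26 (SE 0.11, adjusted p = 0.0659), past the threshold by DESeq2 and without a filter, with 0.00029 to 0.187. Timm17a (chr1:135295213-135313778), a partner of Timm23 in the channel, had 87.2 and 100 CPM in input, 140 and 119 in IgG, and 170 and 166 in CPEB1 IP, and its groups did not overlap either. It was higher than input in CPEB1 IP (0.89, SE 0.14, adjusted p = 0.000426) and in IgG (0.47, SE 0.18, adjusted p = 0.0361), the latter lost by DESeq2, without a filter, without input replicate 1 and without either IgG library, with an adjusted p of 0.0171 to 0.466. Between the precipitates it was 0.31 (SE 0.12, adjusted p = 0.0519), past the threshold by DESeq2, with its size factors in edgeR, without a filter and without IgG replicate 1, where it was 0.48, with an adjusted p of 0.000276 to 0.201.

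Timm17b (chrX:7899357-7908351), the paralog that can take the place of Timm17a, went the other way. It had 25.5 and 29.6 CPM in input, 10.6 and 16.02 in IgG, and 15.4 and 13.2 in CPEB1 IP. Both precipitates lay below input and overlapped each other. Timm17b was lower than input in CPEB1 IP (log2 fold change -0.91, SE 0.25, adjusted p = 0.0134) and in IgG (-1.04, SE 0.36, adjusted p = 0.0178). These calls were lost by DESeq2, the first also without CPEB1 IP replicate 2 and the second without input replicate 2 or IgG replicate 1, with an adjusted p of 0.00243 to 0.131 and 0.0106 to 0.17 over the alternatives. Timm21 (chr18:84946191-84951524), a subunit that binds the TOM complex from the inner membrane, had 35.3 and 40.0 CPM in input, 11.4 and 11.7 in IgG, and 19.6 and 19.8 in CPEB1 IP. Its 3 groups were apart, with IgG lowest. Its log2 fold change from input was -0.88 in CPEB1 IP (SE 0.21, adjusted p = 0.00706) and -1.70 in IgG (SE 0.34, adjusted p = 8.4e-05). The first call was lost without either CPEB1 IP library, where the adjusted p was 0.0517 and 0.0515, the highest over its alternatives, which went down to 0.00115, and the second held under all 9. Between the precipitates the log2 fold change of Timm21 was 0.71 (SE 0.34, adjusted p = 0.114), on 15 and 16 counts in the IgG libraries, and past the threshold without a filter (0.03 to 0.314 over the alternatives). Timm50, the presequence receptor of the inner membrane, had 74.3 to 87.9 CPM over the 6 libraries, and Timm44, which anchors the Hsp70 motor, 38.7 to 69.7, and neither was called in any comparison. Without input replicate 2, Timm44 was called lower than input at -0.59 in CPEB1 IP and -0.71 in IgG, with an adjusted p of 0.00348 to 0.611 and 0.0236 to 0.365 over the alternatives.

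Ratios of the FPKM of 2 members within a library do not depend on its scaling. Timm17a stood at 1.11 and 1.10 times Timm17b in input, 4.26 and 2.41 times in IgG, and 3.57 and 4.07 times in CPEB1 IP. Timm23 stood at 6.72 and 5.71 times Timm21 in input, 30.0 and 29.0 times in IgG, and 22.1 and 21.3 times in CPEB1 IP. In both pairs the precipitates lay above input, and the ratio of Timm23 to Timm21 was higher in IgG than in CPEB1 IP. The ratio of Timm23 to Timm44 was 3.35 and 4.10 in input, 8.69 and 7.04 in IgG, and 8.26 and 10.3 in CPEB1 IP. That of Tomm5 to Tomm7 was 1.35 and 1.01 in input, 2.59 and 3.11 in IgG, and 4.22 and 2.82 in CPEB1 IP. Among the receptors the groups overlapped, with Tomm20 at 2.60 to 7.50 times Tomm70a and at 0.876 to 1.52 times Tomm22 over the 6 libraries. These ratios are descriptions with 2 libraries a group, and no test was made of them.

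**Figure D4:**
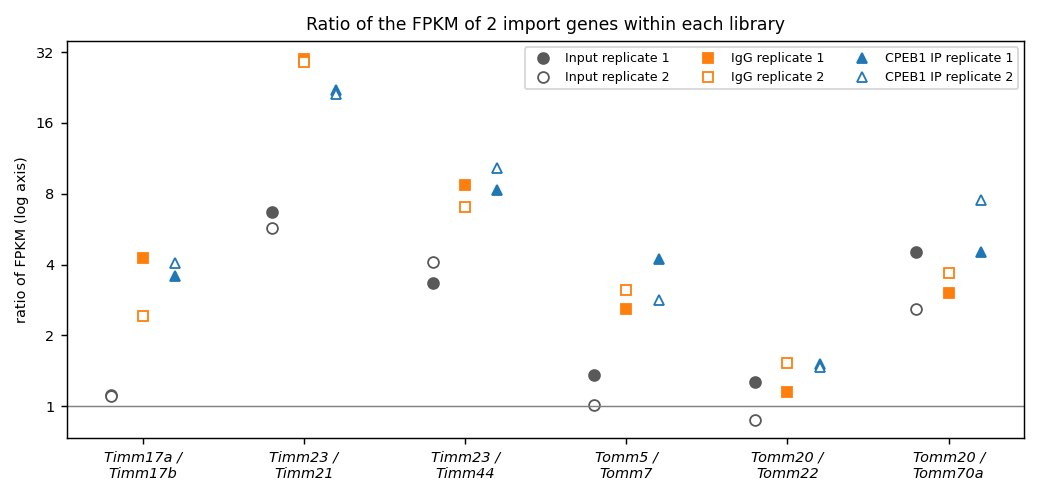
Ratio of the deposited FPKM of 2 Timm or Tomm genes in each library (vertical log axis) for 6 gene pairs. Each point is 1 library, filled for replicate 1 and open for replicate 2. The ratio of Timm17a to Timm17b is 1.11 and 1.10 in input and 2.41 to 4.26 in the precipitates, while that of Tomm20 to Tomm70a overlaps between groups.

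The criterion for CPEB1-associated genes in the study's methods asks for an IP over IgG ratio of FPKM above 2 in each of the 2 experiments together with a call by the count test. With a pseudocount of 1 added to each FPKM and edgeR as the test, 2 members met it, Timm10 with ratios of 2.09 and 2.38 and Tomm40 with 2.03 and 2.51, where 12.1% of the 12124 genes tested did. The ratio alone was over 2 in both experiments for Timm8b (2.21 and 2.03), Timm13 (2.45 and 2.08), Timm22 (2.02 and 2.53) and Timm23 (2.02 and 2.12) as well, or 6 members, where 14.4% of genes tested passed it. With DESeq2, the test of the study, Timm13, Timm22 and Timm23 also met the whole criterion, which made 5 members. The same 5 met it in edgeR without a filter on low counts. The share of all genes that met it in those fits was not computed. The total by which the deposited FPKM are scaled is larger than the sum over genes, which made up 39.5% and 39.1% of it in IgG, 69.9% and 69.5% in CPEB1 IP and 71.1% and 79.8% in input. On this scale the median ratio over all genes tested was 1.45 in experiment 1 and 1.52 in experiment 2, and that of the 22 members was 1.89 and 1.91. When FPKM was computed again with TMM library sizes, the medians were 0.992 and 0.988 for all genes and 1.22 and 1.08 for the members. No member then had a ratio over 2 in both experiments, where 0.503% of the genes tested did. Timm10 stood at 1.25 and 1.33 and Tomm40 at 1.24 and 1.44.

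**Figure D5:**
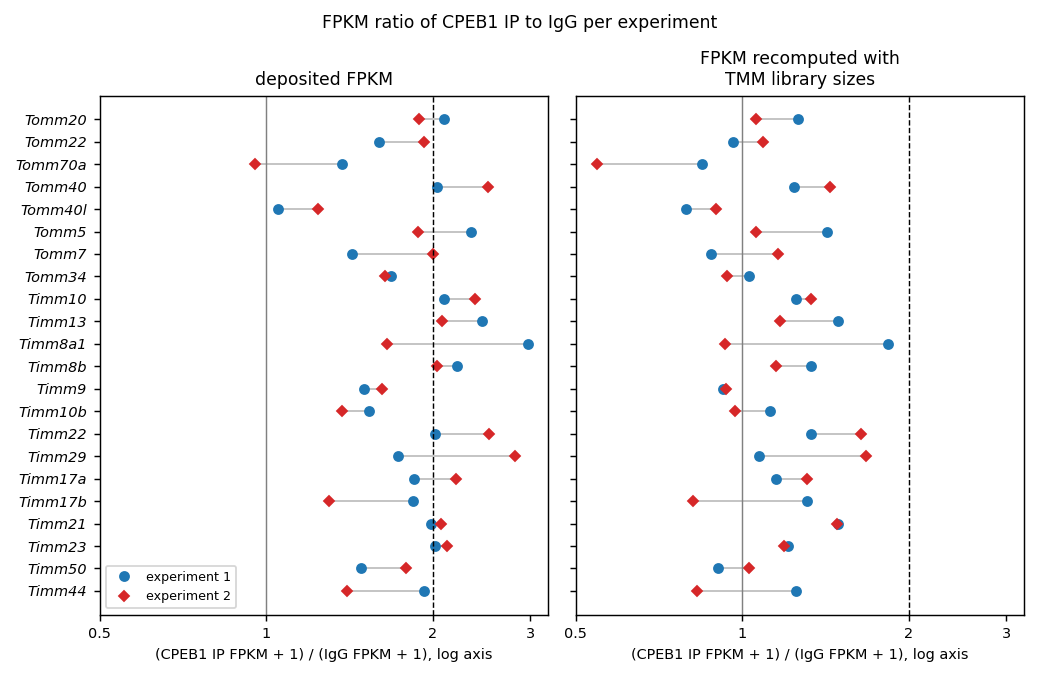
Ratio of FPKM plus 1 in CPEB1 IP to that in IgG (horizontal log axis) for the 22 tested Timm and Tomm genes in experiment 1 (circles) and experiment 2 (diamonds), with the deposited FPKM at the left and with TMM library sizes at the right. The dashed line marks a ratio of 2, which 6 genes pass in both experiments at the left and 0 at the right.

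A list of 27 other genes of the import pathway was set beside the members. It holds the outer membrane assembly machinery, the motor, the oxidative folding of the intermembrane space, the processing peptidases and the folding chaperones of the matrix. In CPEB1 IP against IgG, 7 of the 26 tested were higher (26.9%, beside 14.7% of all genes tested) and 1 was lower (3.85%, beside 18.7%), with a median log2 fold change of 0.12. The largest were Trap1, a chaperone of the matrix (1.18, SE 0.20, adjusted p = 0.000168), Hspd1, the matrix chaperonin (0.95, SE 0.10, adjusted p = 7.84e-07) and Hspa9, the Hsp70 of the motor (0.78, SE 0.09, adjusted p = 6.54e-06). Hspa9 had 505 and 630 CPM in input, 405 and 402 in IgG, and 763 and 687 in CPEB1 IP. Hspd1 had 491 and 599 CPM in input, 251 and 266 in IgG, and 542 and 507 in CPEB1 IP. Its CPEB1 IP and input libraries overlapped, with a log2 fold change of -0.0 over input (SE 0.13, adjusted p = 0.985). Trap1 had 128 and 121 CPM in input, 28.1 and 29.1 in IgG, and 60 and 73.9 in CPEB1 IP, so that it was highest in input and lowest in IgG. Mtx3 of the outer membrane was lower in CPEB1 IP than IgG (-1.60, SE 0.47, adjusted p = 0.0126), on 12 and 11 counts in IgG and 8 and 13 in CPEB1 IP. This call was lost by DESeq2 (adjusted p = 0.219), without a filter (adjusted p = 0.192) and with any 1 of the 4 libraries left out. Partner genes called higher numbered 8 by DESeq2 and 10 without a filter. In these fits 21.7% and 28.8% of the same 12124 genes were called higher.

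In CPEB1 IP against input, 6 of the 27 partner genes rose (22.2%, beside 17.0% of all genes tested) and 4 fell (14.8%, beside 15.8%), and the median log2 fold change was -0.01, where that of the Timm and Tomm genes was 0.68. Chchd4, the oxidoreductase that folds the small TIM chaperones (1.27, SE 0.15, adjusted p = 7.05e-05), and Grpel1 (1.23, SE 0.14, adjusted p = 4.34e-05) and Grpel2 (1.18, SE 0.27, adjusted p = 0.00491), exchange factors of the motor, rose most. Mtx3 (-1.81, SE 0.48), the peptidase Mipep (-1.21, SE 0.29) and Aifm1, which anchors Chchd4 (-1.20, SE 0.25), were lower, with adjusted p of 0.0119, 0.00704 and 0.00257. Mtx3, with 22 and 47 counts in input and 8 and 13 in CPEB1 IP, lost its call by DESeq2 (adjusted p = 0.0513). Its call was also lost without input replicate 2, where its value was -1.16. Without CPEB1 IP replicate 2 the calls of Mtx3 and Mipep were lost. In IgG against input 3 partner genes were higher (11.1%, beside 21.4% of all genes tested), Gfer (1.15, adjusted p = 0.00488), Grpel2 (1.05, adjusted p = 0.0204) and Chchd4 (0.53, adjusted p = 0.0357). There were 6 lower (22.2%, beside 19.4%), with Trap1 (-2.12, adjusted p = 6.52e-10), Aifm1 (-1.45, adjusted p = 0.000983) and Hspd1 (-1.08, adjusted p = 2.43e-07) lowest. All 3 calls of higher partner genes in IgG were lost by DESeq2 and without a filter. Of the same 12980 genes, 6.05% and 10.7% were called higher in these fits. With a library left out Gfer ran from 0.99 to 1.27, Grpel2 from 0.83 to 1.32 and Chchd4 from 0.40 to 0.68.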

How the data were processed

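RNA of 6 libraries was analysed, 2 each of input, IgG and CPEB1 IP, grouped by the sample titles. Per the study's methods, the authors mapped reads to mm10 with HISAT 2.1.0, sorted them with Samtools 1.9 and counted them on genes with featureCounts 1.5.1. The authors deposited raw counts of each library without normalization, and FPKM, which divide the counts by exon length and by a total per library, of which the sum over genes made up 39.1% to 79.8%. The annotation release, strand setting and handling of multiply mapped reads were not given in the sources used here. Total counts on genes of 1284716 to 4941653 a library limit the precision for low genes, and limits cover counting error only.

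The members and all lists were chosen with earlier results of these data known. Raw counts were filtered with filterByExpr, normalized by TMM, and compared 2 groups at a time with edgeR 4.0.16 (R 4.3.3, limma 3.58.1), by the quasi-likelihood test with Benjamini-Hochberg adjustment at 0.05, two-sided. The test covered 12124, 12171 and 12980 genes. The study's methods use DESeq2, which was run as an alternative (version 1.42.0). The procedure was also run on counts simulated from the means and spreads of these libraries, with the outcome not given here. The CPM of single genes uses TMM factors over 14276 genes of the 6 libraries. FPKM ratios had a pseudocount of 1. Motifs were searched with Python 3.11.15 (numpy 2.4.6, pandas 2.3.3, scipy 1.17.1), and figures drawn with matplotlib 3.10.9. All members are accounted for: those called in CPEB1 IP against IgG or input are described singly, others by role. Of the 27 partner genes, the 3 with the largest log2 fold change in each direction of each comparison are named.

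For the FPKM ratio the study pairs precipitates by experiment. Whether equal replicate numbers mark pairs was checked over 14276 genes by correlating deviations from the group mean, which gave -0.0108 (CPEB1 IP with IgG), -0.0245 (CPEB1 IP with input) and 0.0325 (IgG with input). These correlations cannot settle the pairing. The main count test used no block, and a block was run as an alternative. Alternatives were DESeq2, its size factors in edgeR, no filter on low counts, the replicate number as a block, all 6 libraries in 1 fit, each library left out in turn, pseudocounts of 0.1 and 5, a ratio of 1.5, FPKM with TMM library sizes, crossed pairs, and other CPE rules.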

Additional observations from a re-analysis of the deposited data

How the results depend on the processing

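With 2 libraries a group, many calls depended on the tool, the filter or 1 library. Of the members called, 1 of 4 (CPEB1 IP against IgG), 10 of 14 (CPEB1 IP against input) and 2 of 10 (IgG against input) kept direction and call under all alternatives. With the replicate number as a block no member changed its call. There were then 3 higher and 1 lower, 12 higher and 2 lower, and 8 higher and 2 lower in these comparisons. The numbers were not taken as pairs in the main fit. The correlations of same-numbered libraries, -0.0245 to 0.0325 with 2 pairs, cannot settle whether they are. A library left alone in its group was assumed to vary like the other group. For CPEB1 IP against IgG, members higher numbered 9 by DESeq2, 5 with its size factors in edgeR and 11 without a filter. Members lower numbered 0 by DESeq2, without a filter and with all 6 libraries in 1 fit. Partner genes higher numbered 8 by DESeq2 and 10 without a filter, where 21.7% and 28.8% of the 12124 genes were called higher. Partner genes lower numbered 0 by DESeq2 and without a filter. The members' median was 0.52 by DESeq2, 0.63 without a filter and 0.19 to 0.32 with a library left out. For CPEB1 IP against input, members lower numbered 1 and partner genes lower 3 by DESeq2, where 11.9% of 9955 genes were called lower. The members' median was 0.55 to 0.76 with a library left out. For IgG against input, members higher numbered 2 by DESeq2 and 3 without a filter, and members lower 1 by DESeq2. Partner genes higher numbered 0 by DESeq2 and without a filter. There the members' median was 0.27 by DESeq2, 0.14 without a filter and 0.31 to 0.47 with a library left out. The number that met the FPKM criterion was 0 once FPKM used TMM library sizes, 1 after a pseudocount of 5, 5 by DESeq2 and 5 without a filter. For DESeq2 and the unfiltered fit the share of all genes that met it was not computed. With a library left out, the number of calls also changed over all genes, and not always in the same direction as among the members. The shift of all genes in the DESeq2 and unfiltered fits is given with the comparisons, and why it arises was not tested.

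The direction turned only for values that were not past the threshold in the main fit. For CPEB1 IP against IgG the log2 fold change became 0.10 without a filter for Tomm40l, 0.26 (DESeq2), 0.37 (no filter) and 0.04 (all 6 libraries) for Tomm34, 0.24, 0.35 and 0.02 for Timm50, and 0.17 (DESeq2) and 0.29 (no filter) for Timm9. With a library left out it ran from -0.05 to 0.10 for Tomm34, -0.18 to 0.27 for Tomm7, -0.09 to 0.04 for Timm50, -0.16 to 0.36 for Timm10b, -0.12 to 0.22 for Timm44, -0.02 to 0.19 for Tomm22, -0.20 to 0.39 for Timm17b and -0.01 to 0.88 for Timm8a1. For CPEB1 IP against input it ran from -0.39 to 0.27 for Tomm7. For IgG against input it became -0.03 (DESeq2) and -0.16 (no filter) for Tomm34, and -0.09 for Tomm40 and -0.13 for Timm50 without a filter. With a library left out it ran from -0.01 to 0.25 for Tomm34, -0.53 to 0.07 for Tomm7, -0.0 to 0.38 for Tomm40, -0.34 to 0.02 for Timm29 and -0.30 to 0.17 for Timm22. The cause was not tested.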
